A study of Mus musculus with 18 samples.

Results

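The 7 genes described here encode enzymes that add or remove methyl groups at lysine 36 of histone H3 (H3K36), and they were followed through all 18 libraries of a chromatin immunoprecipitation sequencing (ChIP-seq) study of E14 mouse embryonic stem cells. The genes were taken by name, 7 of 21627 protein-coding genes on the autosomes and chromosome X. They are 5 methyltransferase genes (Nsd1, Nsd2, Nsd3, Ash1l and Setd2) and 2 demethylase genes (Kdm2a and Kdm4a). Each was measured in the windows within 1 kb of its annotated start, over its whole body and over 10 equal segments of the body (counted from the 5′ end).

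E14 cells were grown on gelatin in 2i/LIF, a medium that holds them in a naive undifferentiated state. Untreated cells gave 2 libraries each for H3K27me1, H3K27me2, H3K27me3, H3K36me2 and H3K36me3, without a spike-in. Cells kept for 7 days in 10 µM EPZ-6438, which blocks the catalytic activity of EZH2, or in an equal volume of the solvent DMSO gave 2 libraries each for H3K27me3 and H3K36me2. In these 8 quantitative libraries Drosophila S2 chromatin made up 0.05% of the chromatin. All libraries came from a single cell line, and the labels do not say whether replicates were separate cultures, so p-values measure only the spread between these libraries.

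H3K36 methylation marks transcribed and intergenic chromatin and hinders PRC2, the complex whose catalytic subunit EZH2 methylates H3K27. NSD1, NSD2 and NSD3 are related SET-domain enzymes that place up to 2 methyl groups on H3K36, and ASH1L, a Trithorax-group protein, places the same mark. SETD2 travels with elongating RNA polymerase II and adds the methyl group that makes H3K36me3, which is why that mark follows transcribed gene bodies towards their 3′ end. KDM2A removes H3K36me2 and binds unmethylated CpG dinucleotides through a CXXC zinc finger. KDM4A removes the trimethyl state from H3K36 and H3K9. The data record chromatin marks on these genes, and neither their RNA nor their proteins were measured here.

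On GRCm38, Nsd1 lies at chr13:55209782-55318325, Nsd2 at chr5:33820676-33897966, Nsd3 at chr8:25601601-25719667, Ash1l at chr3:88950414-89079375 and Setd2 at chr9:110532500-110618633, all on the plus strand. Kdm2a lies at chr19:4316144-4398721 and Kdm4a at chr4:118136957-118180090, both on the minus strand. They span 43.1 kb (Kdm4a) to 129 kb (Ash1l). Reads carry no strand information here, so windows that a neighbour shares cannot be divided. Gm52782 overlaps 5163 bp at the 5′ end of Nsd2, 9430078G10Rik overlaps 2758 bp at the 5′ end of Kdm2a, and Dap3 overlaps 800 bp at the start of Ash1l.

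Promoter sequences of 2 members, Setd2 and Kdm4a, were in the RefSeq table used here (GRCm38.p6), each from 250 bases before to 50 bases after the table's start, which lies slightly inside the outermost annotated 5′ end used for the windows. They are shown because they lie in the start windows described below and differ widely in CpG content. CpG dinucleotides (the letters CG, read the same on both strands) are in capitals.
Setd2 (chr9:110532347-110532646, plus strand): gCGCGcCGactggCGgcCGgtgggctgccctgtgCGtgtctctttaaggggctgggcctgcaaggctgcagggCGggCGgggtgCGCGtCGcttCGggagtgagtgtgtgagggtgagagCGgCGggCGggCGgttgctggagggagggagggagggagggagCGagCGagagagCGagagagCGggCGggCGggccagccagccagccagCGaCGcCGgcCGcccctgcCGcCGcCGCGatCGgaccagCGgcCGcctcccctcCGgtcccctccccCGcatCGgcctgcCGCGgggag
Kdm4a (chr4:118179994-118180293, minus strand): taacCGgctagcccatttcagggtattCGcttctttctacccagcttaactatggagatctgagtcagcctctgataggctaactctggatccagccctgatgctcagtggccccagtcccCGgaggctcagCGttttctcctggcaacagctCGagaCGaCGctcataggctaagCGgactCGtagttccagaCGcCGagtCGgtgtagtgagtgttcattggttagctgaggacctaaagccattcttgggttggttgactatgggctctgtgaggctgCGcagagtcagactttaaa
The Setd2 promoter held 38 CpG and 77.3% G+C, and 6.53% of 21044 protein-coding promoters of this length held as many CpG. The Kdm4a promoter held 13 CpG and 53.3% G+C, the same number as the median promoter (13). At least 1 CpG was present in 95.5% of these promoters.

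Levels are window read numbers scaled by the library's own factor, averaged over non-overlapping 1 kb windows. Except where the spike-in scale is named, they are divided by the mean over all windows of the same library, so that 1 is the library's average window. Estimated read totals ran from 17.3 M to 50.9 M (M, units of 1e6) in untreated libraries and from 16.3 M to 84.4 M in the quantitative ones, apart from H3K27me3 after the inhibitor, where they were 0.749 M and 1.34 M. All 8 embryonic stem cell marker genes had untreated H3K36me3 body levels above 1, as did 66.7% of all genes. Their levels ran from 1.17 in Dppa5a to 8.06 in Tfcp2l1 (summed level 46.4). Levels above 1 were also found in 4 of 4 mesoderm (2.10 to 8.37, sum 16.3) and 3 of 4 neural markers (0.643 to 2.56, sum 6.12). The same held for 3 of 4 fibroblast (0.498 to 2.03, sum 5.67) and 2 of 4 primitive endoderm markers (0.891 to 2.00, sum 5.14). The first sum covers 8 genes and the others 4 each, so they cannot be compared directly. None of these lists was at 0, and their part in the results below was not tested. At the start, untreated H3K27me3 was above 1 in 1 of 7 stem cell markers with start windows (Esrrb, 6.23), against 38.2% of all starts. It was above 1 in 4 of 4 neural, 2 of 3 mesoderm, 2 of 2 fibroblast and 1 of 1 primitive endoderm markers with start windows.

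In untreated cells the bodies of all 7 genes carried more H3K36me3 than the library average, as did 66.7% of 21414 genes, and more than the median gene (1.78). Kdm4a stood highest, at 9.53 and 11.0 in the 2 libraries (10.3 ± 1.06, SD, n = 2), at percentile 98.7 of all genes. Nsd1 had 5.02 and 4.53 (4.77 ± 0.342), above both libraries of Ash1l at 4.46 and 3.91 (4.19 ± 0.394). Setd2, the gene of the H3K36me3 enzyme itself, had 4.09 and 3.61 (3.85 ± 0.337). Nsd2 had 3.94 and 3.38 (3.66 ± 0.393), Kdm2a 3.73 and 3.12 (3.42 ± 0.435), and Nsd3 3.27 and 3.35 (3.31 ± 0.0591). From Ash1l down to Nsd3, neighbours in this order overlapped between libraries. Within each library Ash1l, Setd2, Nsd2 and Kdm2a kept this order, and only the place of Nsd3 differed. The place of Nsd3 is thus not resolved, and the rest of the order rests on 2 libraries and was not tested.

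Within these bodies H3K36me3 was higher in segments 6 to 10 than in segments 1 to 5 in all 7 genes, as in 79.0% of 7924 genes of at least 10 kb with body levels above 1. For Nsd1, Nsd2, Nsd3, Ash1l and Kdm2a this direction was also the only check of their strand in these data, so for them it is a description and no independent result. The log2 ratio of segments 1 to 5 over segments 6 to 10 is called the tilt here. It was -1.07 and -1.51 in Kdm2a (mean -1.29, at percentile 7.43 of 10772 genes), where the mean level went from 1.98 in the first segment to 8.71 in the last. Nsd2, Nsd3 and Ash1l were similar, with mean tilts of -1.13, -1.10 and -0.99, against a median of -0.34 over all genes. Setd2 (-0.28), Nsd1 (-0.24) and Kdm4a (-0.16) were flatter than the median gene. Kdm4a rose from 4.30 in the first segment to 10.1 in the second and stayed between 9.43 and 13.9 to its end.

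H3K36me2, the product of the NSD enzymes and ASH1L and the substrate of KDM2A, followed another order. Nsd3 had the highest body level of the 7, 1.72 and 1.60 (1.66 ± 0.0894), at percentile 61.7. Kdm4a followed with 1.39 and 1.14 (1.26 ± 0.175), then Ash1l with 1.13 and 1.05 (1.09 ± 0.0536) and Nsd2 with 1.00 and 1.02 (1.01 ± 0.0109). Setd2 had 0.858 and 0.774 (0.816 ± 0.0595) and Kdm2a 0.789 and 0.778 (0.784 ± 0.00744), which overlapped. Nsd1 was lowest, at 0.543 and 0.539 (0.541 ± 0.00260), at percentile 21.5. The libraries of every other pair of neighbours in this order were apart, but 2 libraries give a weak estimate of spread. The median gene stood at 1.30, above every member except Nsd3. The authors' H3K36me2 peaks covered 83.4% of the Nsd3 body, at most 22.1% of any other member and none of Setd2, against a median of 43.8% over all genes.

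The low body of Nsd1 lay beside a high start. In its start windows H3K36me2 was 3.79 and 2.30 (3.04 ± 1.05), at percentile 91.9 of 17278 genes with a known strand, and an authors' H3K36me2 peak of 22.5 kb ended 3.22 kb inside the gene. Among windows within 5 kb of the start, the mean peaked at 5.87, 2.28 kb upstream, and had fallen to 0.572 by 4.72 kb inside. Kdm2a start windows had 2.26 and 1.95 (2.10 ± 0.225). The other 5 starts lay between 0.647 (Nsd2) and 1.25 (Setd2), below the median start of 1.29. At Nsd2 the level dropped from 4.31 at 2.18 kb upstream to 0.364 at 2.82 kb inside.

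The starts of 2 of the 7 genes, Nsd2 and Kdm2a, carried H3K27me3, the mark of PRC2 repression, above the library average, as did 38.2% of all starts. Kdm2a start windows had 2.27 and 3.28 (2.78 ± 0.711, 58 and 70 window reads), at percentile 77.7. Nsd2 had 1.06 and 1.50 (1.28 ± 0.312, 27 and 32 window reads), at percentile 65.6. The other 5 starts held 0 to 6 window reads per library and mean levels of 0.0469 (Kdm4a) to 0.215 (Nsd3), below the median start of 0.478. Kdm4a had 0 reads in 1 of its libraries, where 3 window reads would be the 1-sided 95% Poisson limit for a count of 0.

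The positions of this H3K27me3 differed among windows within 5 kb of each start. At Kdm2a the highest window lay 0.22 kb inside the gene (3.49, with 3.14 and 3.84 in the 2 libraries), in an authors' peak at chr19:4398001-4401000 that runs from 2.28 kb upstream to 0.720 kb inside. At Nsd2 the highest of these windows lay 1.68 kb upstream (3.60, with 3.45 and 3.75), in a 15 kb peak at chr5:33806501-33821500 that ends 0.824 kb inside. That peak begins upstream of the windows searched. Both peaks reach the stretches that Gm52782 and 9430078G10Rik share with these genes. The same upstream stretch of Nsd2 lay in an H3K36me2 peak at chr5:33806501-33820000 and an H3K27me2 peak at chr5:33806501-33821500. A further 2 H3K27me3 peaks, of 4.5 and 4 kb, lay inside Nsd3, and the other 4 genes held none, as did 55.5% of all genes.

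**Figure D1:**
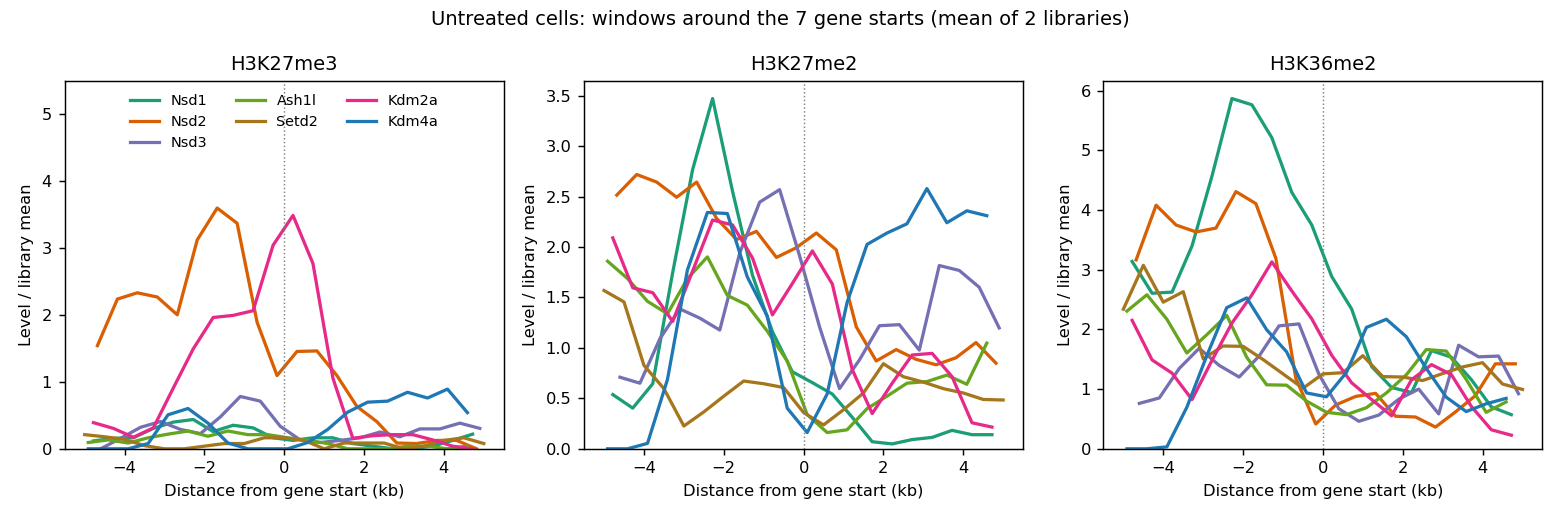
Untreated H3K27me3, H3K27me2 and H3K36me2 (level divided by the library mean, mean of 2 libraries, 1 kb windows every 500 bp) against distance from the annotated start in kb, with 1 line per gene. Nsd2 and Kdm2a reach 3.60 and 3.49 in H3K27me3, and Nsd1 reaches 5.87 in H3K36me2 upstream of its start.

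Over whole bodies H3K27me3 was below the library average in all 7 genes, while 38.7% of all genes were above it. Nsd3 had 0.582 and 0.521 (0.551 ± 0.0428) and Kdm4a 0.596 and 0.349 (0.473 ± 0.175), close to the median gene at 0.560. Nsd2 had 0.153 and 0.200, Kdm2a 0.112 and 0.146, and Ash1l 0.106 and 0.0908. Setd2 had 0.0712 and 0.0657 and Nsd1 0.0552 and 0.0373, at percentiles 11.1 and 7.12. In Kdm2a the first segment held 0.574 and the other segments 0.0323 to 0.119. When windows shared with other genes were left out, the Kdm2a body level went from 0.129 to 0.0729.

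H3K27me2 ranged widely among the members. Kdm4a had 2.90 and 2.16 (2.53 ± 0.518, percentile 94.4) and Nsd3 1.98 and 1.67 (1.82 ± 0.217), both above the median gene at 1.22. The authors' H3K27me2 peaks covered 97.5% and 94.9% of these 2 bodies. Nsd2 had 1.11 and 1.18, Ash1l 1.03 in both libraries, Setd2 0.714 and 0.708, and Kdm2a 0.717 and 0.678. Nsd1 was lowest, at 0.213 and 0.257 (0.235 ± 0.0304, percentile 6.98), with none of its body in a peak, as in 39.4% of all genes. Kdm4a thus combined the highest H3K36me3 with the highest H3K27me2 of the 7, and Nsd1 the second highest H3K36me3 with the lowest H3K27me2.

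H3K27me1 was above the library average in all 7 bodies, from 1.48 ± 0.0469 in Nsd3 to 2.70 ± 0.410 in Ash1l, as it was in 64.0% of all genes, and above the median gene at 1.23. Kdm4a had 2.61 and 2.30, Nsd2 2.72 and 2.14, Setd2 2.48 and 1.96, Kdm2a 2.35 and 1.82, and Nsd1 2.07 and 1.46. Library 1 was the higher of the 2 in each gene, and all neighbours in the order overlapped between libraries. Within each library the order was the same, except that Kdm4a and Nsd2 changed places. The authors' H3K27me1 peaks covered 67.7% (Nsd3) to 100% (Setd2) of the bodies, against a median of 25.9%. Along the body H3K27me1 rose towards the 3′ end most in Nsd2, from 0.829 in the first segment to 4.69 in the last.

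**Figure D2:**
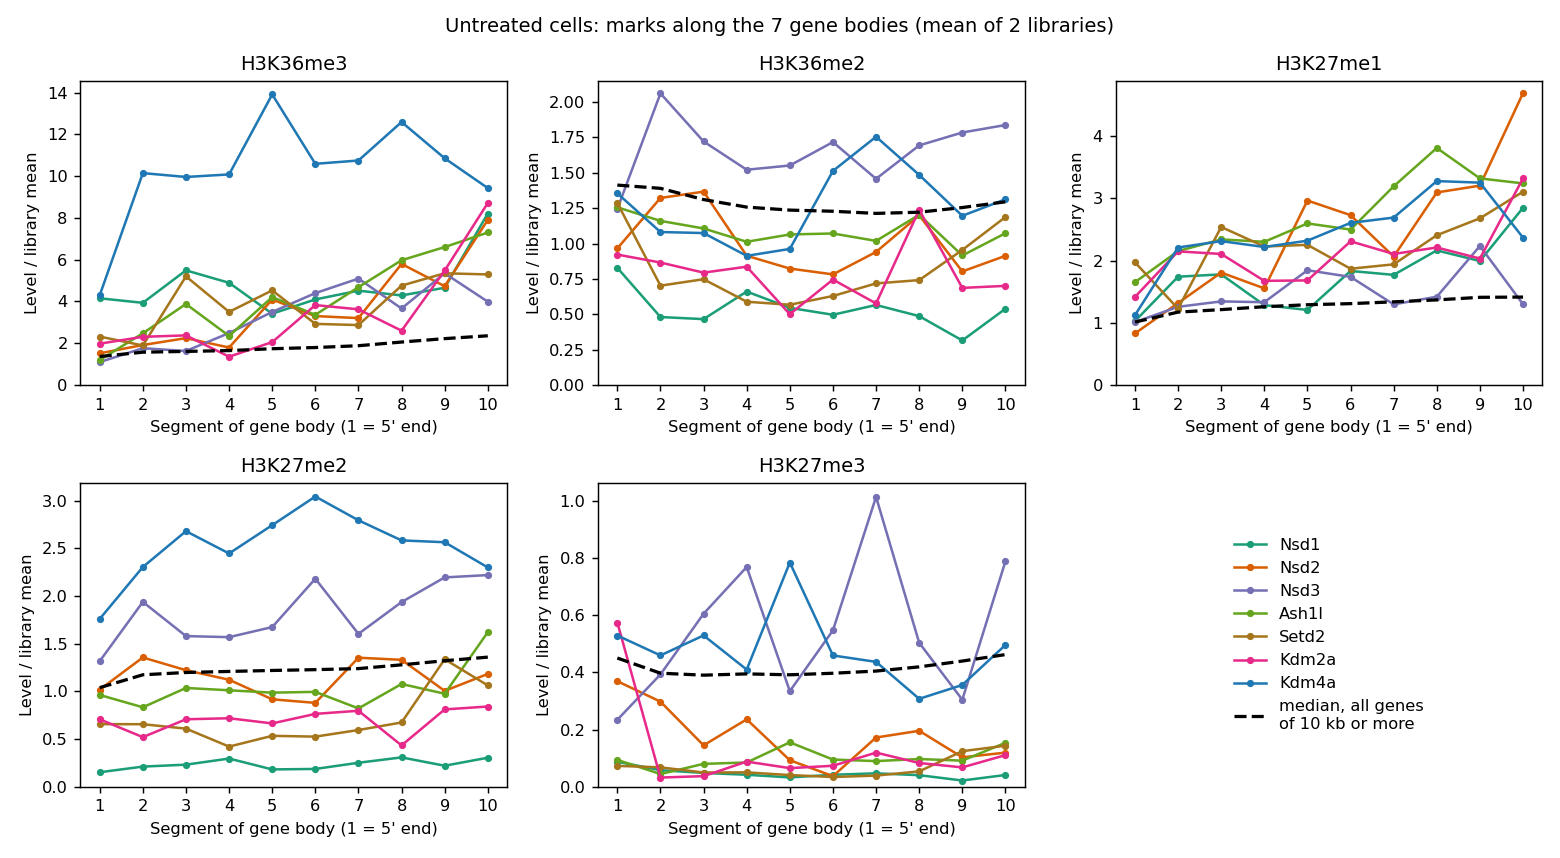
Untreated levels of 5 marks (level divided by the library mean, mean of 2 libraries) in each segment of the gene body from the 5′ end, with 1 line per gene and the median over genes of at least 10 kb dashed. Kdm4a lies above the others in H3K36me3 and H3K27me2 and Nsd1 lies below them in H3K27me2, in each of the 10 segments.

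Likeness was measured over the 50 values that 10 segments and 5 untreated marks give, as the root mean square difference of log2(level + 0.1), against 11033 other protein-coding genes of at least 10 kb. The nearest gene was Hat1 for Nsd1 (0.384), Chd6 for Nsd2 (0.353), Gnptab for Nsd3 (0.389) and Htt for Ash1l (0.280). For Setd2 it was Usp38 (0.310), for Kdm2a Rbm6 (0.479) and for Kdm4a Trrap (0.454). Median differences to all genes ran from 1.29 to 2.03. Among the members, Nsd2 and Ash1l were nearest to each other (0.480), and 0.127% of other genes were nearer to Nsd2 than Ash1l was. Kdm4a was 0.969 from its nearest member, Nsd3, and 11.8% of other genes were nearer.

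After 7 days of the inhibitor, H3K27me3 on the spike-in scale fell in all 7 gene bodies. The mean level over all windows went from 42.2 ± 9.17 to 0.0790 ± 0.0172 spike-in-scaled reads per window (SD, n = 2), 534-fold lower. The comparison asks how far the mark that EZH2 places is lost at these genes. In a limma fit on log2(level + 1), a Benjamini-Hochberg adjusted p under 0.05 called 18197 of 18200 gene bodies lower (100%), so the members' calls are those of nearly every gene. ChIP of a cell population cannot tell fewer cells with the mark from less of it per cell.

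Among the methyltransferase genes, Nsd1 went from 3.80 and 3.18 after DMSO to 0.0874 and 0.0330 (69, 102, 39 and 36 window reads), 58.0-fold lower. Nsd2 went from 13.3 and 12.5 to 0.0849 and 0.0746, 162-fold lower. Nsd3 went from 23.4 and 16.6 to 0.158 and 0.0671, 177-fold lower. In these 3 genes, as in the 4 below, the arms did not overlap.
Ash1l went from 7.33 and 4.73 to 0.0976 and 0.0599, 76.6-fold lower, and Setd2 from 5.53 and 4.45 to 0.0779 and 0.0307, 92.0-fold lower. The demethylase gene Kdm2a went from 11.2 and 7.19 to 0.0758 and 0.0358, 165-fold lower, and Kdm4a from 38.8 and 19.6 to 0.253 and 0.152, 144-fold lower. The median gene with reads in every library was 333-fold lower. Inhibitor libraries held 26 to 80 window reads per member body, so these ratios are imprecise. A single window read was scaled to 5.94 and 3.37 after DMSO but to 0.242 and 0.099 after the inhibitor. Equal read numbers would therefore also come out lower on this scale. The bodies of Nsd1, Ash1l, Setd2 and Kdm4a held no authors' H3K27me3 peak in untreated cells. How much of each ratio is loss of the mark and how much is background reads was not tested.

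On the log2(level + 1) scale of the fit the members' changes ran from -2.08 (Nsd1, SE 0.243, adjusted p = 4.6e-06) to -4.58 (Kdm4a, SE 0.317, adjusted p = 3.6e-08). Their median was -3.25, against -4.89 over all genes tested. The added 1 compresses the change of genes with little H3K27me3: with 0.1 added the members' changes ran from -4.50 to -6.57 against a median of -7.30 over all genes, and in limma-voom on recovered reads from -6.10 to -7.64 against -8.38.

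At the starts, the 2 genes that carried H3K27me3 had the largest changes of the 6 tested. Inhibitor levels of the tested members were all below the added 1, so this order repeats that of their DMSO levels. Nsd2 went from 202 and 219 spike-in-scaled reads per window after DMSO to 0.242 and 0.495, with 68, 130, 2 and 10 window reads behind them. Poisson 95% intervals of the inhibitor levels were 0.0293 to 0.874 and 0.237 to 0.910, and these are too narrow where a read was counted in both start windows. Kdm2a went from 134 and 123 to 0.242 and 0.149, with 45, 73, 2 and 3 window reads and inhibitor intervals of 0.0293 to 0.874 and 0.0306 to 0.434. The limma changes on log2(level + 1) were -7.28 (SE 0.310) for Nsd2 and -6.76 (SE 0.304) for Kdm2a, both with adjusted p = 1.3e-07, and with so few reads they depend on the added 1. All 9473 starts tested were called lower (100%).

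The other starts had few reads in either arm. Nsd1 had 17.8 and 10.1 after DMSO and 0.363 and 0.297 after the inhibitor, Nsd3 23.8 and 8.43 against 0.121 and 0.198, and Ash1l 14.9 and 6.74 against 0.847 and 0.0495. Setd2 had 2.97 and 3.37 against 0.121 and 0.0495, with 1 or 2 window reads in each library. Window reads were 6 and 6 against 3 and 6 at Nsd1 and 8 and 5 against 1 and 4 at Nsd3. At Ash1l they were 5 and 4 against 7 and 1. A single window read was scaled to 5.94 and 3.37 after DMSO but to 0.242 and 0.099 after the inhibitor. Fitted changes were -3.72 for Nsd3, -3.44 for Nsd1 and -2.99 for Ash1l, and the call of Setd2 rests on 1 or 2 reads per library. With so few reads these changes carry mainly the library scale and do not measure a loss particular to these starts. Kdm4a had 0, 2, 1 and 0 window reads and was not tested. Intervals and limits cover counting error only, since duplicates cannot be told from separate molecules.

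Relative to the library mean, the DMSO libraries placed Nsd2 starts at 4.15 and 6.14 and Kdm2a starts at 2.75 and 3.45 in H3K27me3. The untreated libraries had placed them at 1.06 and 1.50 and at 2.27 and 3.28. The 2 sets of libraries were normalized separately and were not tested against each other. After the inhibitor the relative start levels were 2.66 and 7.41 at Nsd2, where the arms overlapped, and 2.66 and 2.22 at Kdm2a. They rest on 2, 10, 2 and 3 window reads, and relative H3K27me3 at starts was not tested.

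The H3K27me3 reads left after the inhibitor were spread differently over genes. Divided by the library mean, the level in all 7 bodies was higher in both inhibitor libraries than in both DMSO libraries. Nsd1 went from 0.0780 and 0.0892 to 0.959 and 0.494, Setd2 from 0.114 and 0.125 to 0.855 and 0.460, and Ash1l from 0.151 and 0.132 to 1.07 and 0.896. Nsd2 went from 0.273 and 0.349 to 0.931 and 1.12, Nsd3 from 0.480 and 0.464 to 1.73 and 1.00, and Kdm2a from 0.231 and 0.201 to 0.832 and 0.536. Kdm4a, the highest of the 7 in both DMSO libraries, went from 0.798 and 0.549 to 2.78 and 2.27. After the inhibitor 6 of the 7 bodies had means between 0.657 and 1.37, and Kdm4a alone had 2.53 ± 0.356.

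On log2(relative level + 0.1) limma called all 7 higher, from 1.29 (Kdm2a, SE 0.261, adjusted p = 0.016) to 2.16 (Ash1l, SE 0.200, adjusted p = 0.0035), with a member median of 1.74. Over all 18200 bodies 42.4% were called higher and 10.4% lower, 54.6% were above both DMSO libraries, and the median change was 0.56. The members' DMSO means ran from 0.0836 (Nsd1) to 0.673 (Kdm4a), against 0.655 in the median gene. The share called among genes of like DMSO level was not taken, so the calls are not read as a trait of the members. When libraries were centred on the median gene, which moved the median change to -0.35 and the calls to 24.2% higher and 38.6% lower, 3 members stayed called (Ash1l, Kdm4a and Nsd1), with adjusted p up to 0.25 for the others. The members' changes were then 0.37 to 1.25, and they were 0.46 to 1.08 with 1 added in place of 0.1. Without DMSO replicate 1 the same 3 were called, with changes of 1.32 to 2.22, and 24.6% of all bodies were called higher. Without DMSO replicate 2 only Ash1l and Nsd1 were called, with member changes of 1.22 to 2.16, and 22.7% of all bodies were called higher. The inhibitor libraries hold 0.749 M and 1.34 M reads, and the part of this low depth in the shift was not tested.

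**Figure D3:**
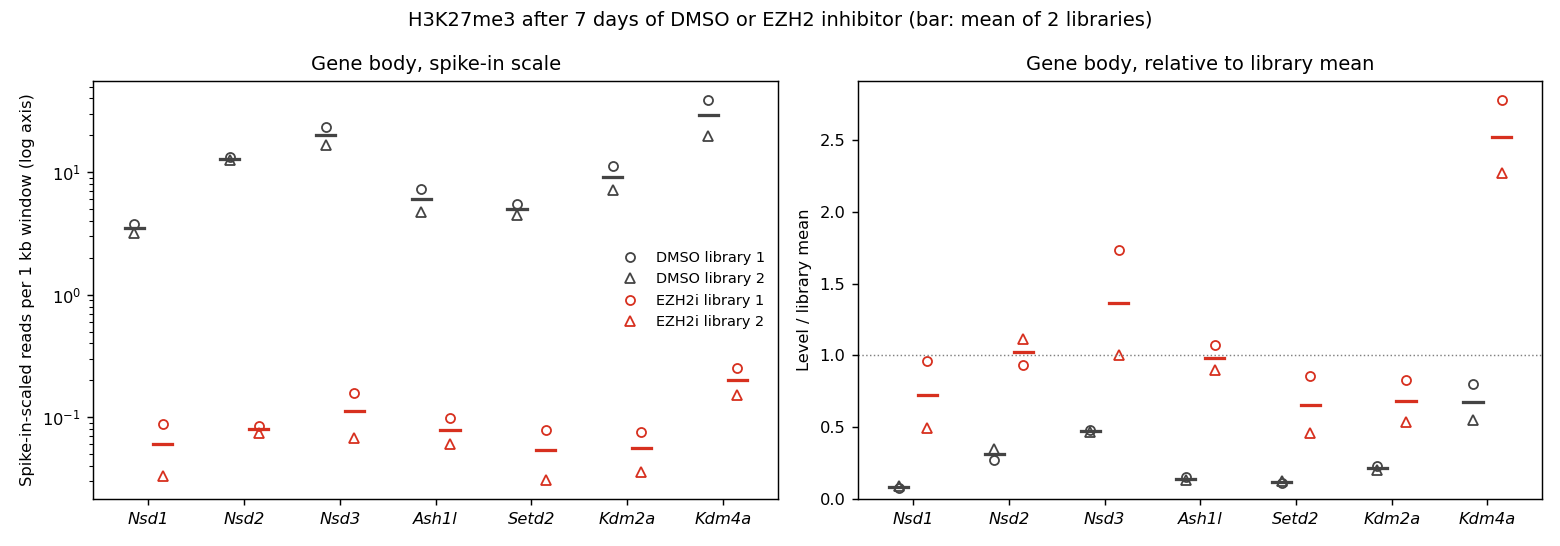
H3K27me3 in the 7 gene bodies in each DMSO (grey) and inhibitor (red) library, with circles for library 1, triangles for library 2 and bars for the mean, as spike-in-scaled reads per 1 kb window on a log axis (left) and divided by the library mean (right). On the left the highest inhibitor library is at 0.253 and the lowest DMSO library at 3.18, and on the right the inhibitor libraries lie above the DMSO libraries in each gene.

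H3K36me2 on the spike-in scale showed no called change in any member. The mean over all windows was 268 ± 77.9 spike-in-scaled reads after DMSO and 315 ± 126 after the inhibitor. Nsd1 bodies had 181 and 180 after DMSO and 236 and 176 after the inhibitor, Nsd2 319 and 279 against 377 and 274, and Nsd3 511 and 349 against 571 and 332. Ash1l had 322 and 234 against 373 and 202, and Setd2 273 and 206 against 299 and 204. Kdm2a had 231 and 190 against 274 and 185, and Kdm4a 494 and 441 against 462 and 431. The arms overlapped in all 7 genes, and library 1 exceeded library 2 in both arms of all 7.

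Changes in limma ran from -0.06 (Kdm4a) to 0.18 (Nsd1), with a median of 0.06 against 0.07 over all genes. Each had the same SE of 0.496 and an adjusted p of 1.00. This SE is pooled over all genes, so the spread of a gene's own libraries had no weight in it. The fit at the starts below likewise gave an SE of 0.562 throughout. The 95% interval for Nsd1 ran from -0.80 to 1.15, an interval that holds changes of about that size in either direction. Over all 20808 bodies 27 were called (0.13%), 26 higher (0.125%) and 1 lower (0.00481%). Both inhibitor libraries were above both DMSO libraries in 7.43% of bodies and below them in 0.947%, and in no member. At the starts 11 of 16660 were called (0.066%) and the members' changes ran from -0.40 (Nsd3) to 0.09 (Nsd1), with adjusted p = 1.00. Both inhibitor libraries were above both DMSO libraries at 7.28% of starts and below them at 2.06%, and at no member.

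Dividing by the library mean cancels the spike-in factor and asks whether H3K36me2 moved towards or away from these genes. No member body was called, and limma called 0 of 20808 bodies (0%), with 3140 at an unadjusted p under 0.05 and 0 called by limma-voom on recovered reads. Nsd3 went from 1.58 and 1.64 to 1.41 and 1.46 and Ash1l from 0.997 and 1.10 to 0.922 and 0.890, both below both DMSO libraries, as were 36.7% of all bodies. Their changes were -0.15 (SE 0.0804, 95% interval -0.38 to 0.07) and -0.19 (SE 0.0902, -0.44 to 0.06), with adjusted p of 0.38 and 0.36.

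The arms overlapped in the other 5 bodies. Nsd1 had 0.559 and 0.843 after DMSO and 0.585 and 0.776 after the inhibitor, and Nsd2 0.985 and 1.31 against 0.933 and 1.21. Setd2 had 0.845 and 0.966 against 0.739 and 0.899, Kdm2a 0.713 and 0.891 against 0.679 and 0.814, and Kdm4a 1.53 and 2.07 against 1.14 and 1.90. Their changes ran from -0.25 (Kdm4a, 95% interval -1.07 to 0.57) to -0.02 (Nsd1, -0.68 to 0.63). The members' median change was -0.13, close to the -0.12 of all bodies. Between same-numbered libraries, Nsd2, Setd2, Kdm2a and Kdm4a were lower after the inhibitor for both numbers, and Nsd1 for library 2 only. The share of all bodies lower for both numbers was not taken. With the replicate number as a block, limma called no member body, the lowest adjusted p being 0.15. In that fit 7535 of 20808 bodies had an unadjusted p under 0.05, and 0 were called.

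**Figure D4:**
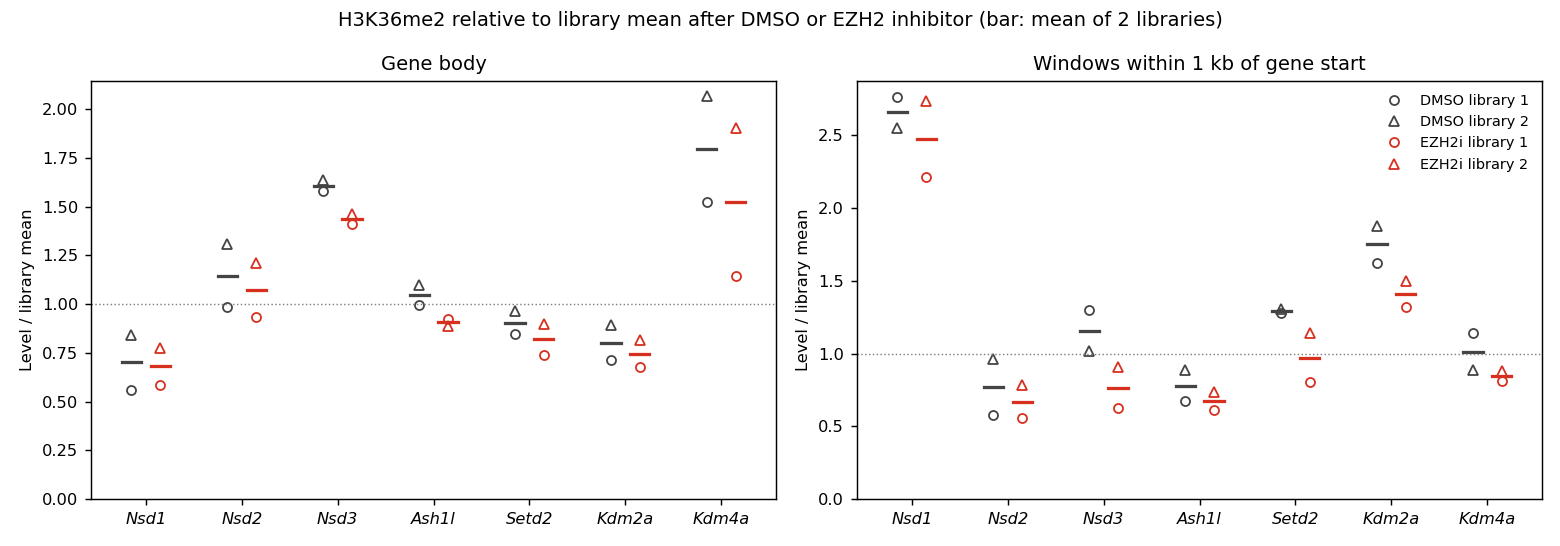
H3K36me2 divided by the library mean in the 7 gene bodies (left) and start windows (right) in each DMSO (grey) and inhibitor (red) library, with circles for library 1, triangles for library 2 and bars for the mean. Inhibitor libraries lie below both DMSO libraries in the bodies of Nsd3 and Ash1l and at the starts of Nsd3, Setd2, Kdm2a and Kdm4a. At the Kdm4a start this rests on 0.881 against 0.886.

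At the starts, H3K36me2 relative to the library mean was below both DMSO libraries in 4 of 7 members, against 38.5% of all starts. Nsd3 went from 1.30 and 1.02 to 0.625 and 0.905 (83, 39, 53 and 38 window reads). Setd2 went from 1.28 and 1.30 to 0.801 and 1.14 and Kdm2a from 1.62 and 1.88 to 1.32 and 1.50. Kdm4a went from 1.14 and 0.886 to 0.813 and 0.881 (73, 34, 69 and 37 window reads). Its place among the 4 rests on 0.881 against 0.886, which is close to a tie. None was called, the closest being Nsd3 (change -0.55, SE 0.223, 95% interval -1.05 to -0.05, unadjusted p = 0.034 and adjusted p = 0.33 in limma). The Nsd3 change was -0.31 without inhibitor replicate 1 and -0.78 without inhibitor replicate 2. Of 16660 starts 0 were called (0%), with 2396 at an unadjusted p under 0.05 and 0 called by limma-voom.

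Nsd1, the start with the most H3K36me2, had 2.76 and 2.55 after DMSO and 2.22 and 2.74 after the inhibitor, and its arms overlapped. Ash1l and Nsd2 overlapped too, at 0.671 and 0.886 against 0.613 and 0.738 and at 0.578 and 0.964 against 0.554 and 0.786. Between same-numbered libraries, Ash1l and Nsd2 were lower after the inhibitor for both numbers, and Nsd1 for library 1 only. The share of all starts lower for both numbers was not taken. The 7 changes had a median of -0.22 against -0.15 over all starts. Centred on the median start, which moved that median to 0.02, the changes were -0.37 in Nsd3 and -0.22 in Setd2, and those of Nsd1, Nsd2 and Ash1l turned to 0.073, 0.020 and 0.0038.

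**Figure D5:**
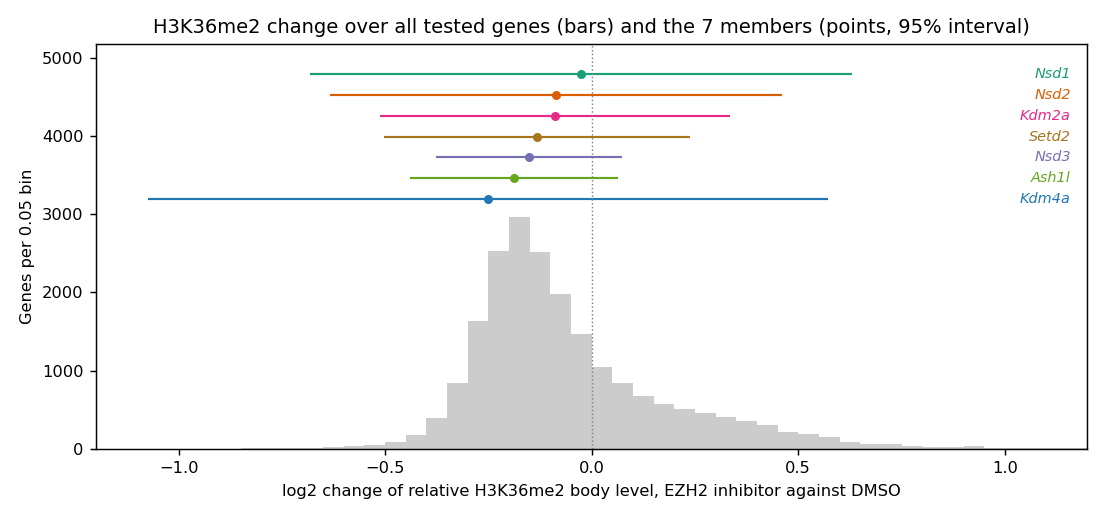
Histogram of the log2 change of relative H3K36me2 body level, inhibitor against DMSO, over all tested genes (grey bars, genes per bin of 0.05), with the 7 members as points with 95% intervals. All 7 points lie between -0.25 and -0.02, and all 7 intervals include 0.

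Along the bodies, none of the 70 segments of the 7 genes was called, nor any of 107396 segments of all genes (0%, with 11442 at an unadjusted p under 0.05), though limma-voom called 595. The lowest unadjusted p-values among the members were those of the fourth segment of Ash1l (-0.40, SE 0.133, adjusted p = 0.46) and the fourth segment of Nsd3 (-0.29, SE 0.120, adjusted p = 0.48), which were named after their values were seen. Both inhibitor libraries were below both DMSO libraries in 14 segments (5 in Nsd3, 4 in Ash1l, 2 each in Kdm2a and Setd2 and 1 in Kdm4a) and above them in 1, of Nsd2, against 31.3% and 15.3% of all segments.

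The tilt of H3K36me2 between segments 1 to 5 and segments 6 to 10 was called in 0 of 10883 genes (0%, with 734 at an unadjusted p under 0.05). Nsd1 had tilts of 0.14 and 0.01 after DMSO and of 0.20 in both inhibitor libraries, above both DMSO libraries, as in 18.8% of all genes (change 0.12, SE 0.0898, adjusted p = 0.93). The other 6 genes overlapped between arms, with changes from -0.07 (Ash1l) to 0.17 (Nsd2).

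A list of 27 other genes, tied to the H3K36 pathway by role or by gene family, was set beside the 7. It held other methyltransferases and demethylases, readers of the mark, and partners of SETD2 and ASH1L. Untreated H3K36me3 was above the library mean in 25 of the 27 bodies, against 66.7% of all bodies, with a median of 4.15 against 1.78. It ran from 10.2 in Phf1, a PRC2 accessory protein with a Tudor domain, to 0.422 in Kdm4d. Kdm4d is listed as a demethylase gene of the Kdm4 family, and whether its protein acts on H3K36 was not examined here. Untreated H3K27me3 was above 1 at 7 of 23 measured starts, against 38.2% of all starts, and was highest at Phf19 (10.3), the gene of another PRC2-associated Tudor protein. After the inhibitor all 27 bodies and all 13 starts that could be tested were called lower on the spike-in scale, as were 100% of all bodies and of all starts tested. Relative to the library mean 17 of the 27 bodies were called higher and 0 lower, against 42.4% and 10.4% of all bodies.

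None of the 27 bodies and none of the 23 starts tested was called for H3K36me2 on either scale (Kdm4b, Psip1, Pwwp2b and Iws1 starts were not tested). The largest rise of relative body level was that of Kdm4d (0.21, SE 0.101, adjusted p = 0.36) and the largest fall that of Dnmt3b, a DNA methyltransferase gene whose protein reads H3K36 methylation (-0.32, SE 0.138, adjusted p = 0.35). The median over the list was -0.15, against -0.12 over all bodies.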

How the data were processed

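The deposited tracks hold log2 values in 1 kb windows every 500 bp. Each value came to log2(1 + a whole multiple of a library step) at a tolerance of 0.02, so read numbers per window could be recovered from the authors' values. The step matched RPM in untreated libraries. In the quantitative libraries it is read here as a spike-in scaling by the authors, which no source spells out. Per the submitters' processing notes, Trim Galore 0.4.2, Bowtie2 2.2.6.2, SICER and the builds mm10 and dm3 were used. The deposited peak lists carry a score for each peak, and the deposited readme assigns each list to both untreated libraries of its mark. The score was not used. The 2633787 non-overlapping windows of the autosomes and chromosome X were averaged per gene, with GRCm38 RefSeq coordinates. Strand came from the promoter table for 17273 genes and from general knowledge for 5 members (Nsd1, Nsd2, Nsd3, Ash1l and Kdm2a), where the only check was that H3K36me3 was higher at the far end of the gene.

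Inhibitor and DMSO libraries (2 against 2) were compared with limma 3.58.1 in R 4.3.3, two-sided, Benjamini-Hochberg adjusted over all features above 0 in all 4 libraries, at 0.05. A value of 1 was added on the spike-in scale and of 0.1 on the relative scale before taking log2, which understates the change of low genes. An exact permutation test of 2 against 2 was not used, since it cannot pass that threshold. A read can fall in more than 1 window (1.32 windows per read). The scripts were tested on simulated data. The members, gene lists and tests were chosen with earlier results of these data known. All 7 members were named, and from the 27 pathway genes those with the highest or lowest untreated H3K36me3, the highest H3K27me3 at the start and the largest rise and fall of relative H3K36me2. Alternatives were other added values, read minimums, windows, centring, limma-voom, the replicate number as a block and leaving out each library.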

Additional observations from a re-analysis of the deposited data

How the results depend on the processing

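Alternatives were chosen together with the tests. All 7 members stayed lower in H3K27me3 body level on the spike-in scale in every alternative run, and no member body, start or tilt was called for H3K36me2 in any. With at least 10 window reads required, 10850 bodies and 457 starts could be called for H3K27me3, since fewer were tested, and no member start was among those tested. The 27 bodies called for spike-in-scaled H3K36me2 became 0 with that minimum, 2 without the first 2 kb, 0 with limma-voom and 2 to 104 on leaving out a library. The 11 starts became 19 with 0.1 added, 0 with the read minimum, 0 within 2 kb, 0 with limma-voom and 0 to 47 on leaving out a library. Relative H3K27me3 bodies (9612) ran from 4217 to 13401, and relative H3K36me2 starts (0) from 0 to 80, on leaving out a library. Body segments called went from 0 to 595 with limma-voom. The cause of these shifts was not tested. A lone library left in an arm is assumed to vary like the other arm. Replicate numbers are shared between arms. Deviations of same-numbered libraries in relative body level correlated at 0.063 for H3K27me3 and at 0.58 for H3K36me2, so same-numbered H3K36me2 libraries shared structure. Their spike-in-scaled means over all windows were also higher in library 1 in both arms (323 and 213 after DMSO, 404 and 227 after the inhibitor). With 2 pairs it cannot be told whether the numbers mark matched cultures, and the main fits do not use them. With the replicate block, 2284 bodies were called for spike-in-scaled H3K36me2 and 230 starts for relative H3K36me2, with no member among them.

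Uncalled H3K36me2 changes of members turned sign in some alternatives. Centred on the median, relative bodies of Nsd1, Nsd2 and Kdm2a stood at 0.073, 0.012 and 0.0094, and relative starts of Nsd1, Nsd2 and Ash1l at 0.073, 0.020 and 0.0038. Ash1l stood at 0.0023 on the spike-in scale without windows in other genes. Spike-in-scaled starts were -0.0175 for Nsd2 and -0.097 for Ash1l at the 500 bp step, and -0.044 for Ash1l within 2 kb.

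Leaving out each library in turn, spike-in-scaled bodies ran from -0.036 to 0.39 in Nsd1, -0.12 to 0.34 in Nsd2, -0.35 to 0.43 in Nsd3, -0.44 to 0.44 in Ash1l, -0.22 to 0.33 in Setd2, -0.18 to 0.39 in Kdm2a and -0.14 to 0.016 in Kdm4a. Spike-in-scaled starts ran from -0.26 to 0.45 in Nsd1, -0.14 to 0.19 in Nsd2, -0.88 to 0.069 in Nsd3, -0.27 to 0.29 in Ash1l, -0.51 to 0.059 in Setd2, -0.43 to 0.22 in Kdm2a and -0.52 to 0.44 in Kdm4a. Relative bodies ran from -0.28 to 0.23 in Nsd1, -0.27 to 0.10 in Nsd2, -0.23 to 0.054 in Kdm2a and -0.59 to 0.093 in Kdm4a. Relative starts ran from -0.25 to 0.043 in Nsd1, -0.48 to 0.17 in Nsd2 and -0.35 to 0.0030 in Ash1l. Tilts ran from -0.062 to 0.41 in Nsd2, -0.070 to 0.15 in Nsd3, -0.21 to 0.065 in Ash1l, -0.022 to 0.020 in Setd2 and -0.18 to 0.39 in Kdm2a.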
